A study of Mus musculus with 12 samples.

Results

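The 10 genes described here encode metallothioneins and antioxidant enzymes: Mt1, Mt2, Sod1, Sod2, Sod3, Gpx1, Gpx3, Gpx4, Prdx3 and Txn2. They were taken by gene symbol from a table of read counts with 23420 genes, and all 10 were found. RNA was sequenced from 4 adipose depots of untreated male C57BL/6 mice, 8 weeks old and kept at ambient temperature, with 3 libraries per depot. Brown fat was sampled at an interscapular (iBAT) and a supraclavicular site (scBAT), and white fat at an inguinal (iWAT) and an epididymal site (eWAT). The labels do not say whether the replicates are separate animals, so the p-values measure the spread between these samples, part of which may be technical.

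Metallothioneins are small, cysteine-rich proteins that bind zinc and copper, and their genes are switched on by metals, glucocorticoids and oxidative stress. Superoxide dismutases turn superoxide into hydrogen peroxide, in the cytosol (Sod1), in the mitochondrial matrix (Sod2) and outside the cell (Sod3). Glutathione peroxidases and peroxiredoxins then remove the peroxide, the former with glutathione and the latter with thioredoxin. Brown fat, which burns fuel in its abundant mitochondria to make heat, relies on these systems where respiration yields superoxide.

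Libraries held 17159401 to 29262554 counts, and levels are given as CPM, each gene's count relative to its library's size after TMM scaling. The uncoupling protein gene Ucp1 averaged 2174 and 1969 CPM in the brown depots (iBAT, scBAT) and 22.1 and 45.6 CPM in the white ones (iWAT, eWAT). Over 6 brown adipocyte markers, Ucp1 among them, the sum was 347 CPM in iWAT 2 and 250 CPM in eWAT 2. It was 78.6 to 134 CPM in the other white libraries and 3818 to 5007 CPM in the brown ones. The iWAT libraries 1 and 3 stood apart from the others. Their summed levels of 8 B cell markers were 1536 and 2131 CPM and of 8 T cell markers 859 and 1327 CPM, against 89.4 and 58.1 CPM in iWAT 2 and at most 42.9 and 20.1 CPM elsewhere. Their summed levels of 6 adipocyte markers were 5432 and 3537 CPM, against 9082 in iWAT 2 and 7084 to 9264 in the other depots. Tests that use iWAT were therefore run with all libraries and again without iWAT 1 and 3, where the remaining iWAT library is assumed to vary like the other depots. The spread within iWAT does not enter the p-values of those fits, so smaller ones there are not stronger support. The library kept, iWAT 2, had the highest brown adipocyte marker sum of the white libraries. The part of the lymphocyte markers in these results was not tested. The sum of 8 skeletal muscle markers ran from 302 to 4547 CPM in the brown libraries and from 39.1 to 170 CPM in the white ones. The sum of the macrophage markers, 7 of 8 being in the table, ran from 166 to 327 CPM in brown and from 1056 to 1329 CPM in white libraries. No marker of these lists was at 0 in any depot. In bulk tissue, fewer cells of a type and less RNA per cell cannot be told apart.

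Brown fat held more RNA of 9 of the 10 genes than white fat did, and less of 1. The mean of both brown depots minus that of both white depots was tested with the quasi-likelihood test of edgeR, with Benjamini-Hochberg adjustment over 14898 genes and a threshold of 0.05. Over all tested genes 69.4% passed, 31.3% as higher and 38.1% as lower in brown fat. The largest difference among the 10 genes was that of Sod2, which stood 4.75-fold higher in brown fat, and 3.58% of all tested genes had a larger one. The mitochondrial Prdx3 and Txn2 followed at 3.32-fold and 3.14-fold. Sod3, the extracellular dismutase, was the gene that was lower, by 1.84-fold. The median log2 difference was 1.31 for the 10 genes and -0.11 for all tested genes. Without iWAT 1 and 3, 7 genes were higher and 1 lower, Mt2 and Gpx1 having lost their calls, where 33.6% of all tested genes were higher and 35.2% lower. The medians were then 1.03 for the 10 genes and -0.03 for all tested genes. The 6 brown and 6 white libraries did not overlap for 7 of the 10 genes, against 45.1% of all tested genes. Together the 10 genes took 0.517% to 0.590% of all counts in brown libraries and 0.176% to 0.360% in white ones.

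**Figure D1:**
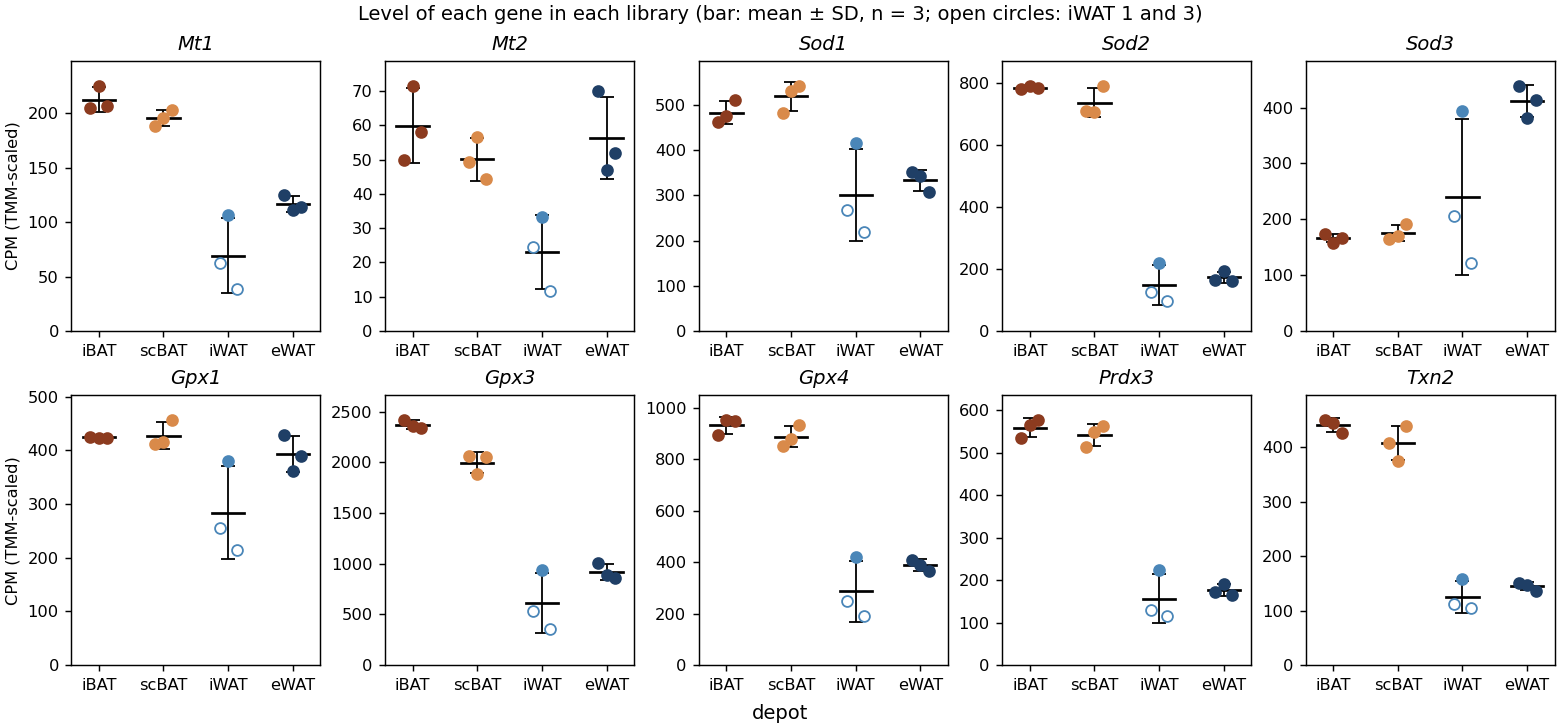
Level of each gene (CPM, y axis) in each library, by depot (x axis); points are libraries, bars the mean ± SD of 3 libraries, and open circles iWAT 1 and 3. Sod2 sits between 708 and 793 CPM in brown and between 97.1 and 220 CPM in white libraries, and iWAT 2 is the highest of the 3 iWAT libraries for every gene shown.

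**Figure D2:**
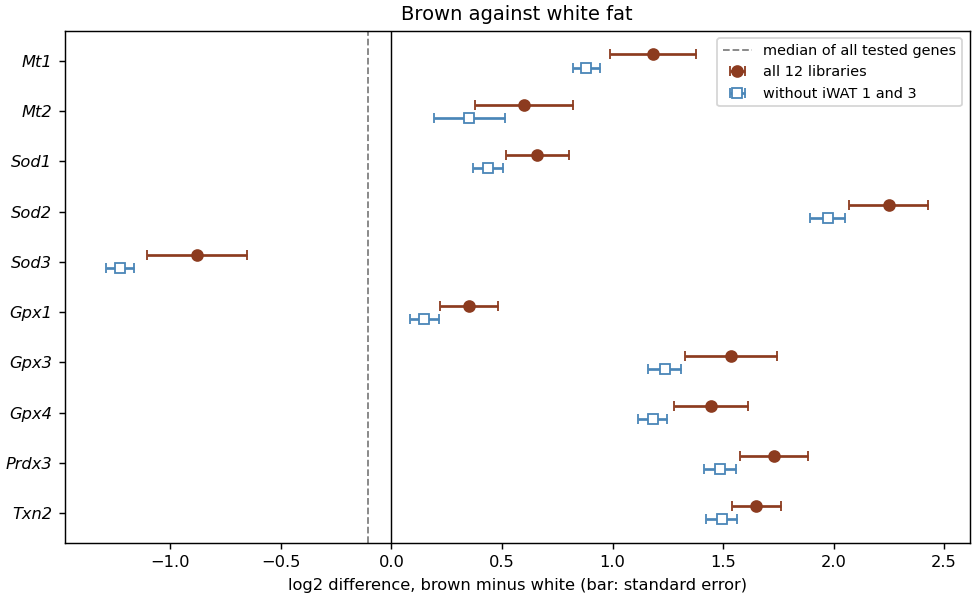
Log2 difference between brown and white fat (x axis) for each gene (y axis), with the standard error as bars, for all 12 libraries and without iWAT 1 and 3; the dashed line is the median of all tested genes, -0.11. Differences other than that of Sod3 lie to the right of 0, and Mt2 and Gpx1 lie nearest to it.

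Mt1 and Mt2 encode the metallothioneins that most tissues make. The genes lie side by side on GRCm38 chromosome 8, Mt2 at 94172664 to 94173568 and Mt1 at 94179082 to 94180327, both on the plus strand and 5513 bases apart. Their coding sequences of 186 bases each are identical at 148 positions (79.6%). They are shown because the cysteine codons, in capitals, are what binds the metal, and because the sequences are close enough to ask whether reads could be shared. Both hold 20 cysteine codons among 61, at the same 20 positions. Their GENCODE coding sequences, 5′ to 3′, are as follows.
Mt1: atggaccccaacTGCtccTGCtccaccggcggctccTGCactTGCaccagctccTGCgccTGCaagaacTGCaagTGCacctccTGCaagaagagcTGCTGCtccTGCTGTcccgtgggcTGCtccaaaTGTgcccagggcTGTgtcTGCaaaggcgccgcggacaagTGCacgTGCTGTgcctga
Mt2: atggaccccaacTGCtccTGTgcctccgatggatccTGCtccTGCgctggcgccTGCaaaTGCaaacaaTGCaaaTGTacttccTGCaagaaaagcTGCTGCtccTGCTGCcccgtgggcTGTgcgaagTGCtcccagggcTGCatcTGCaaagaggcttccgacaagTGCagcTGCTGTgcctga
The longest run of identical bases between the transcripts was 20. Reads longer than that differ between the genes, but how the authors' counting treated reads matching both is not given in the sources used here. Mt2 shares 749 bases with the antisense gene Gm45774, and without a stated strand setting reads of the pair cannot be told apart.

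The 250 bases before the RefSeq starts (GRCm38.p6) of both genes are shown because metallothionein genes are known for their metal response elements, bound by the zinc sensor MTF1. Capitals mark matches, on either strand, to the metal response element letters TGCACNC or TGCGCNC and to the antioxidant response element letters TGACNNNGC. The last of these is the element bound by NRF2.
Mt1 (chr8:94178839-94179088, plus strand): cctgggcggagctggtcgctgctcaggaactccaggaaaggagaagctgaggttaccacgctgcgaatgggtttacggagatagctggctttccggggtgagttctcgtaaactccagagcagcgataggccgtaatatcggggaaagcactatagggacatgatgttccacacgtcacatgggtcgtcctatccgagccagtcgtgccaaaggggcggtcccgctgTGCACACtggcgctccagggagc
Mt2 (chr8:94172368-94172617, plus strand): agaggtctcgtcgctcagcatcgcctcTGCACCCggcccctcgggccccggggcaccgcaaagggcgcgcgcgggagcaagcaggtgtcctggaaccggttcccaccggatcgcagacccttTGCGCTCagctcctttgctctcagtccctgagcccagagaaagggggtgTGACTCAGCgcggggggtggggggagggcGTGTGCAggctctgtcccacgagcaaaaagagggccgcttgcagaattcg
The Mt1 window held 1 metal response match, 23 to 17 bases before the start. The Mt2 window held 3, and 1 antioxidant response match 79 to 71 bases before the start, with no overlap between matches. Of 32851 such windows of mouse genes, 21.4% held at least 1 metal response match, 1.26% held at least 3, and 10.2% held at least 1 antioxidant response match. The last 7 bases of the Mt1 window lie inside the longest GENCODE model of the gene, and 2 other models start 122 and 152 bases after the window's end. The Mt2 window ends 46 bases before the first GENCODE start of that gene, so the match counts of the genes depend on the start chosen and are not compared. Sod1 had 1 antioxidant response match in its window. No match to these letters was found in the windows of Sod2, Gpx1, Gpx3, Gpx4, Prdx3 and Txn2. Sod3 was not searched.

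Mt1 stood at 205, 225 and 207 CPM in iBAT and at 189, 196 and 203 CPM in scBAT. It stood at 62.7, 107 and 38.4 CPM in iWAT and at 125, 111 and 114 CPM in eWAT. Every brown library was above every white one, and every eWAT library was above every iWAT library. In brown minus white the estimate was 1.18 on the log2 scale (SE 0.20, adjusted p = 3.00e-04), and 0.88 without iWAT 1 and 3 (adjusted p = 3.07e-07). Against eWAT alone the log2 difference was 0.87 for iBAT (SE 0.27, adjusted p = 0.0208) and 0.75 for scBAT (SE 0.27, adjusted p = 0.0402). The iBAT call was lost without iBAT 2, eWAT 2 or eWAT 3 (adjusted p up to 0.0662), and the scBAT call was lost without any 1 of 10 libraries (adjusted p up to 0.109). The scBAT call was also lost with upper quartile scaling (adjusted p = 0.0797), with no filter (0.0529) and with limma-voom (0.0567).

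Mt2 followed another order. It stood at 49.8, 71.6 and 58.1 CPM in iBAT and at 49.1, 56.6 and 44.3 CPM in scBAT. It stood at 24.6, 33.1 and 11.7 CPM in iWAT and at 69.9, 47.1 and 51.9 CPM in eWAT. The eWAT libraries overlapped both brown depots, and the iWAT libraries lay below all others. The brown minus white estimate was 0.60 (SE 0.22, adjusted p = 0.0314), and 0.35 without iWAT 1 and 3 (adjusted p = 0.0813). The call was also lost without any 1 of 6 other libraries and with upper quartile scaling (adjusted p = 0.0601). Between the white depots Mt2 was lower in iWAT by 2.44-fold (log2 difference -1.29, SE 0.32, adjusted p = 0.0180). Without iWAT 1 and 3 that value was -0.75 (adjusted p = 0.169). Against eWAT, the log2 difference was 0.09 for iBAT (95% interval -0.60 to 0.77, adjusted p = 0.831) and -0.17 for scBAT (-0.86 to 0.52, adjusted p = 0.673).

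The balance of the metallothioneins also differed between the white depots. The ratio of Mt1 to Mt2 counts within a library, which does not depend on scaling, was 3.15 to 4.11 in iBAT and 3.46 to 4.58 in scBAT. It was 2.55 to 3.28 in iWAT and 1.78 to 2.36 in eWAT. The eWAT range lay below that of every other depot, and iWAT 1 and 3 had ratios of 2.55 and 3.28, on either side of the 3.22 in iWAT 2.

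Sod1, the copper and zinc dismutase of the cytosol (chromosome 16, 90220754 to 90226329, plus strand), differed less between depots than Sod2. It stood at 461, 476 and 511 CPM in iBAT and at 483, 530 and 543 CPM in scBAT. It stood at 267, 416 and 220 CPM in iWAT and at 351, 342 and 307 CPM in eWAT. No white library reached the brown range. Brown minus white gave 0.66 (SE 0.14, adjusted p = 0.00177), and 0.44 without iWAT 1 and 3 (adjusted p = 2.01e-04). The pair iBAT and eWAT gave 0.53 (adjusted p = 0.0440), a call lost without any 1 of 10 libraries, and the pair scBAT and eWAT gave 0.64 (adjusted p = 0.0216), lost without any 1 of 5. Upper quartile scaling ended both calls (adjusted p = 0.102 and 0.0551), and fitting with no filter ended that of iBAT (adjusted p = 0.0685). Sod1 overlaps Scaf4 on the opposite strand by 650 bases, so some of its reads may belong to that gene.

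Sod2, the manganese dismutase of the mitochondrial matrix (chromosome 17, 13006846 to 13040063, plus strand), had the largest difference of the 10 genes. It stood at 782, 793 and 783 CPM in iBAT and at 712, 708 and 792 CPM in scBAT. It stood at 127, 220 and 97.1 CPM in iWAT and at 165, 192 and 161 CPM in eWAT. The lowest brown library was above every white library. Its brown minus white difference was 2.25 (SE 0.18, adjusted p = 1.61e-06), and 1.97 without iWAT 1 and 3 (adjusted p = 5.28e-09). The difference was 2.41 for iBAT and 2.31 for scBAT against iWAT, and 2.18 and 2.09 against eWAT, each past the threshold.

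Sod3, the dismutase that is secreted and held on the cell surface and matrix (chromosome 5, 52363791 to 52371418, plus strand), ran the other way. It stood at 173, 158 and 167 CPM in iBAT and at 165, 169 and 191 CPM in scBAT. It stood at 205, 394 and 121 CPM in iWAT and at 439, 382 and 414 CPM in eWAT. All eWAT libraries and iWAT 2 were above every brown library, iWAT 1 was just above them, and iWAT 3 was below them. In brown minus white the estimate was -0.88 (SE 0.23, adjusted p = 0.00517), and -1.23 without iWAT 1 and 3 (adjusted p = 3.17e-08). Against eWAT the log2 difference was -1.31 for iBAT (adjusted p = 0.00593) and -1.23 for scBAT (adjusted p = 0.00849). Against iWAT it was -0.53 (adjusted p = 0.169) and -0.45 (adjusted p = 0.234). Without iWAT 1 and 3, which left iWAT 2 as the only iWAT library, it was -1.24 and -1.17. Without iWAT 2 instead, the direction against iWAT turned, to 0.05 for iBAT and 0.10 for scBAT.

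Ratios within a library showed the shift among the dismutases. Sod2 had 1.53 to 1.70 counts per Sod1 count in iBAT and 1.34 to 1.47 in scBAT. In white fat it had 0.442 to 0.530 (iWAT) and 0.472 to 0.562 (eWAT). Sod3 had 0.327 to 0.376 and 0.319 to 0.352 in the brown depots, 0.550 to 0.947 in iWAT and 1.115 to 1.35 in eWAT. For Sod3 the ranges of iWAT and eWAT did not overlap, and iWAT 2 was the nearest to eWAT at 0.947.

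**Figure D3:**
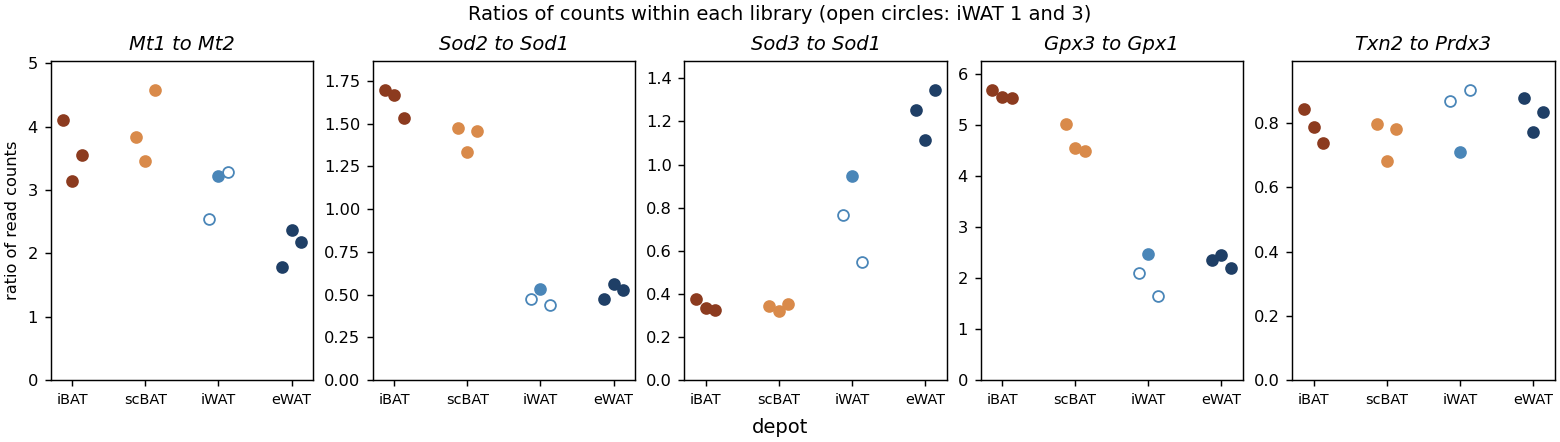
Ratio of read counts of a pair of genes (y axis) within each library, by depot (x axis); points are libraries and open circles are iWAT 1 and 3. The ratio of Sod2 to Sod1 is above 1.33 in brown and at most 0.562 in white libraries, whereas that of Txn2 to Prdx3 overlaps between all 4 depots.

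Gpx1, Gpx3 and Gpx4 are selenoproteins: a TGA codon in the reading frame, which ends other proteins, is read as selenocysteine, the residue at the active site. Stretches of 9 codons of their coding sequences around that codon, in capitals, are shown because selenium supply can limit these enzymes. The codon is number 47 in Gpx1, 73 in Gpx3 and 129 in Gpx4, counted from the start codon of the GENCODE transcript.
Gpx1 (chromosome 9): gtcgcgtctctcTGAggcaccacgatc
Gpx3 (chromosome 11): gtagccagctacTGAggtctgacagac
Gpx4 (chromosome 10): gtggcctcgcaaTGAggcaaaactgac
Their coding sequences hold 4, 3 and 11 cysteine codons.

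Gpx3 encodes the peroxidase secreted into plasma (chromosome 11, 54902453 to 54910377, plus strand). It stood at 2421, 2356 and 2339 CPM in iBAT and at 2063, 1884 and 2050 CPM in scBAT. It stood at 539, 943 and 356 CPM in iWAT and at 1012, 889 and 861 CPM in eWAT. Each iBAT library was above each scBAT library, and all of them were above the white ones. The brown minus white estimate was 1.54 (SE 0.21, adjusted p = 6.90e-05), and 1.24 without iWAT 1 and 3 (adjusted p = 1.04e-07). Between the brown depots the difference was -0.25 (95% interval -0.88 to 0.38), which did not pass the test.

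Gpx4 encodes the peroxidase that reduces lipid hydroperoxides in membranes (chromosome 10, 80047166 to 80056439, plus strand). It stood at 892, 953 and 948 CPM in iBAT and at 851, 879 and 934 CPM in scBAT. It stood at 249, 419 and 192 CPM in iWAT and at 410, 391 and 366 CPM in eWAT. The brown libraries were all above the white ones. Brown minus white gave 1.45 (SE 0.17, adjusted p = 2.50e-05), and 1.18 without iWAT 1 and 3 (adjusted p = 4.85e-08). The annotation holds a processed pseudogene, Gpx4-ps2, that could take some of its reads.

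Gpx1, the abundant peroxidase of cytosol and mitochondria (chromosome 9, 108338903 to 108340343, plus strand), had the smallest brown minus white estimate. It stood at 426, 424 and 423 CPM in iBAT and at 411, 415 and 457 CPM in scBAT. It stood at 256, 381 and 215 CPM in iWAT and at 428, 362 and 390 CPM in eWAT. The highest eWAT library lay within the brown range. Its brown minus white difference was 0.35 (SE 0.13, adjusted p = 0.0333), and 0.15 without iWAT 1 and 3 (adjusted p = 0.0652); the call was lost without any 1 of 9 libraries and with upper quartile scaling (adjusted p = 0.1). Against eWAT, the difference was 0.11 for iBAT (95% interval -0.30 to 0.52) and 0.12 for scBAT (-0.29 to 0.53), neither past the threshold. Gpx3 had 5.53 to 5.68 counts per Gpx1 count in iBAT and 4.48 to 5.02 in scBAT, and 1.65 to 2.48 (iWAT) and 2.21 to 2.45 (eWAT) in white fat.

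Prdx3 and Txn2 work as a pair in mitochondria: Prdx3 is the peroxiredoxin of the matrix and Txn2 the thioredoxin that returns it to its reduced form. Prdx3 (chromosome 19, 60864051 to 60874556, minus strand) stood at 534, 566 and 578 CPM in iBAT and at 512, 550 and 563 CPM in scBAT. It stood at 129, 223 and 116 CPM in iWAT and at 172, 192 and 164 CPM in eWAT. The brown libraries were far above the white ones, and the brown depots overlapped. In brown minus white the estimate was 1.73 (SE 0.15, adjusted p = 3.19e-06), and 1.49 without iWAT 1 and 3 (adjusted p = 1.78e-08).

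Txn2 (chromosome 15, 77915047 to 77929006, minus strand) stood at 451, 446 and 426 CPM in iBAT and at 408, 376 and 439 CPM in scBAT. It stood at 113, 158 and 105 CPM in iWAT and at 151, 148 and 137 CPM in eWAT. Again no white library came near the brown ones. The brown minus white estimate was 1.65 (SE 0.11, adjusted p = 4.09e-07), and 1.49 without iWAT 1 and 3 (adjusted p = 1.44e-08). Txn2 had 0.683 to 0.903 counts per Prdx3 count over all 12 libraries, and the ranges of the 4 depots overlapped.

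Between the brown depots, 0 of the 10 genes passed the threshold in scBAT minus iBAT with edgeR, where 0.329% of all tested genes did (0.235% as higher, 0.094% as lower), and 0 did with DESeq2 or limma-voom. At an unadjusted p under 0.05 the count was also 0. The widest estimates were those of Mt2, -0.26 (95% interval -0.95 to 0.43), and Gpx3, while Gpx1 gave 0.01 (-0.40 to 0.42). Differences inside these intervals are not excluded by the test. Over the 6 brown libraries the muscle marker sum varied 15.1-fold, and among the 10 genes the widest spread was 1.61-fold, in Mt2. A link between the muscle sum and these genes was not tested.

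Between the white depots, Mt2 was the only one of the 10 that passed, as lower in iWAT, where 28.7% of all tested genes passed, 17.7% as higher and 11% as lower. The other 9 also had negative estimates, from -0.15 for Sod1 to -0.78 for Sod3 (adjusted p = 0.0843). At an unadjusted p under 0.05 the count was 4, and the share of all tested genes under it was not counted. Within iWAT the 3 libraries were far apart for all of them, with coefficients of variation of 23.0% to 58.2%, against at most 21.4% in any other depot. Without iWAT 1 and 3 none passed, and the estimates of Sod1, Sod2, Gpx3, Gpx4, Prdx3 and Txn2 turned positive, to between 0.06 and 0.37. Without iWAT 2 instead, all 10 passed as lower in iWAT, in a fit where 10323 genes passed, 51.6% of them as higher.

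The pairs of brown with white depots differed in how many genes passed. Against iWAT, 9 were higher in iBAT and the same 9 in scBAT, and 0 were lower in either. Over all tested genes 63% passed in iBAT minus iWAT, 27.9% as higher and 35.2% as lower, and 61.6% passed in scBAT minus iWAT, 28.1% as higher and 33.5% as lower. Against eWAT, 7 were higher in each brown depot and Sod3 was lower, against 53.7% of all tested genes past the threshold for iBAT (26.2% higher, 27.5% lower) and 51.9% for scBAT (26% higher, 25.8% lower). The 7 were Mt1, Sod1, Sod2, Gpx3, Gpx4, Prdx3 and Txn2. Comparisons with the same white depot share its libraries. Without iWAT 1 and 3, Sod1 and Gpx1 lost their call in iBAT minus iWAT (0.22 and 0.16), and Mt2 and Gpx1 lost theirs in scBAT minus iWAT (0.60 and 0.17). Sod3 then passed as lower in both pairs, at -1.24 and -1.17.

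**Figure D4:**
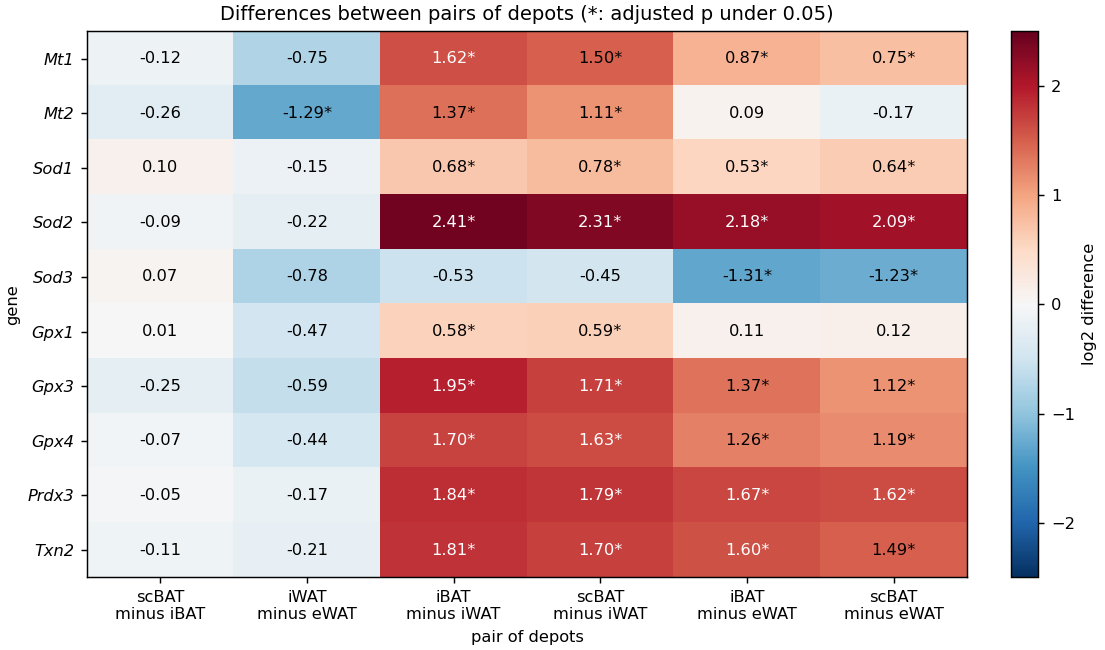
Log2 difference of each gene (rows) in each pair of depots (columns); color gives size and direction, and a star marks an adjusted p under 0.05. The column for the brown pair lies between -0.26 and 0.10, Sod2 is 2.09 or higher in every brown against white column, and Sod3 is negative in each of those, though not without iWAT 2 in the columns against iWAT.

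A pair of scales that follow tissue makeup was set beside these values. Per 1000 CPM of the 6 adipocyte markers, Mt1 was 26.3 to 31.8 in iBAT and 24.4 to 26.3 in scBAT. In the white depots it was 10.9 to 11.7 (iWAT) and 12.1 to 13.7 (eWAT). In the same order of depots, Gpx3 was 297 to 340, 246 to 288, 99.2 to 104 and 96.7 to 109. All brown libraries were above all white ones on this scale for these genes and for Sod1, Sod2, Gpx4, Prdx3 and Txn2, and all were below for Sod3. The iWAT libraries remained apart from each other for Txn2 (17.4 to 29.7), Gpx1 (41.9 to 60.8), Sod1 (45.8 to 62.2) and Prdx3 (23.8 to 32.9). The highest iWAT value of Gpx1 exceeded the brown range of 53.7 to 59.9, and Mt2 in eWAT (5.12 to 7.55) overlapped its brown values of 5.32 to 10.1.

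Per 1000 CPM of 12 mitochondrial structure genes, the order of the depots changed for most of the genes. These 12 were themselves higher in brown fat (median log2 difference 1.49). A gene that rose less than their sum therefore stands lower in brown than in white fat on this scale. Sod2 was 93.9 to 100.5 in iBAT and 91.9 to 99.3 in scBAT, above the 55.2 to 77.8 in iWAT and 68.0 to 73.3 in eWAT. Prdx3 was 65.9 to 78.7 over all 12 libraries, brown and white. Txn2 was 52.5 to 55.7 in brown and 55.9 to 62.1 in white libraries, so all white ones were narrowly above all brown ones. White libraries were also above all brown ones for Sod1, at 125 to 147 against 56.4 to 74.4, and for Gpx1, at 122 to 176 against 50.3 to 58.2. Sod3 was 18.8 to 23.7 in brown and 68.8 to 186 in white libraries. The eWAT libraries alone were above all brown ones for Mt1 (42.4 to 51.3 against 24.2 to 27.4) and Mt2 (18.0 to 28.7 against 5.29 to 8.48). The same held for Gpx3 (339 to 416 against 245 to 299.9) and Gpx4 (149 to 168 against 110 to 123), and the iWAT libraries overlapped the brown range for these 4 genes. How many of all tested genes separate brown from white libraries on either scale was not counted. Whether the content of mitochondria or of adipocytes accounts for a difference was not tested.

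Per kilobase of merged exons, Gpx3 had the highest level of the 10 genes in every depot, with 1308 ± 23.8 and 1103 ± 55.1 CPM per kilobase (SD, n = 3) in iBAT and scBAT. In iWAT and eWAT it was 338 ± 166 and 508 ± 44.2 CPM per kilobase. Gpx4 came next in the brown depots (540 ± 19.7 in iBAT) and Gpx1 in the white ones (273 ± 22.9 in eWAT). Sod3 had the lowest level in iBAT, 44.5 ± 2.03 CPM per kilobase, and in scBAT, and Sod2 the lowest in both white depots (17.3 ± 1.68 in eWAT). Merged exons take in retained introns, which lengthen Sod1 to 3970 bases against the 641 of its main transcript. By transcript length, chosen after seeing the data, Sod1 led in iWAT with 470 CPM per kilobase against 384 for Gpx3, and Gpx3 led in the other depots. Gpx1 was then below Sod1 and Gpx4 in both white depots. In eWAT it was 367 CPM per kilobase against 520 and 391, and in iWAT 265 against 470 and 288.

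For each gene, the genes with the closest profile were sought among 10102 genes with a mean of at least 10 CPM, as the root mean square difference of centred log2 CPM over the 12 libraries. Sod2 lay closest to Dld (0.033), a subunit shared by mitochondrial dehydrogenases, then to the complex I genes Ndufa5 (0.063) and Ndufab1 (0.067). Prdx3 lay closest to Ndufb3 (0.043), a complex I subunit, Pet112 (0.062) and Tmem70 (0.068), and Txn2 to the import channel gene Timm23 (0.041), Mfn1 (0.046) and Ndufa13 (0.057). Gpx4 was nearest to Deb1 (0.048), Poldip2 (0.048) and Agpat6 (0.057), and Gpx1 to Calcoco1 (0.049), Tmed4 (0.050) and Bloc1s1 (0.060). Sod1 was nearest to Ctsd (0.063), Nadk (0.080) and Napa (0.083), and Gpx3 to Gcsh (0.094), Cib2 (0.095) and Naprt1 (0.106). Mt1 was nearest to L3hypdh (0.106), Aifm2 (0.112) and Ak3 (0.117), and Sod3 to the basement membrane collagen gene Col4a1 (0.110), Camk1 (0.116) and Itih5 (0.122). Mt2 was nearest to Palmd (0.222), Bmp6 (0.231) and Atoh8 (0.236). The members' own root mean square variation ran from 0.317 in Gpx1 to 1.18 in Sod2, and the distances are not ranked between members. Within the 10 genes the smallest distance was that of Prdx3 and Txn2 (0.120), then Gpx3 and Gpx4 (0.134), and Mt1 and Mt2 were 0.384 apart.

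Genes around these enzymes were counted by list in the brown minus white comparison. The counts were the same without iWAT 1 and 3 for the lists of thioredoxins and glutaredoxins, other peroxiredoxins, other glutathione peroxidases, copper chaperones and catalase, NADPH supply and mitochondrial structure, with medians of 0.61, 0.50, -0.46, 1.22, 0.55 and 1.35. In the list of thioredoxin and glutaredoxin genes, 7 of 10 tested were higher in brown fat and 0 lower, with a median log2 difference of 0.70. Txnrd2, the mitochondrial thioredoxin reductase, rose by 1.81 (SE 0.13), and Txnrd1, its cytosolic counterpart, by 0.73. The glutaredoxin gene Glrx2 rose by 0.66. Of 5 other peroxiredoxins 3 were higher and 1 was lower, with a median of 0.67. Prdx2 (1.17) and Prdx5 (1.26) were higher, and Prdx4, the peroxiredoxin of the endoplasmic reticulum, was lower at -0.54 (adjusted p = 1.96e-04). Of the other glutathione peroxidases 2 of 5 were tested: Gpx7 was lower at -1.48 and Gpx8 higher at 1.26. Gpx5, an epididymal gene, had 1 count in iWAT, 1 in eWAT and 0 in the brown depots.

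Of 4 genes of copper chaperones and catalase 3 were higher and 0 lower, with a median of 1.30. Ccs, which loads copper into Sod1, was higher at 1.64 (SE 0.08, adjusted p = 8.17e-08), Cox17 at 2.12 and Atox1 at 0.96. The fourth gene of that list, the catalase gene Cat, was chosen for mention after its value was seen, at 0.18 (adjusted p = 0.438). All 12 mitochondrial structure genes were higher, with a median of 1.49, led by Hspe1 (1.52), Phb2 (1.43) and Timm44 (1.83) by adjusted p. Of 7 NADPH supply genes tested, of 8 listed, 6 were higher, among them Idh2 (1.67) and Pgd (0.81). The transhydrogenase gene Nnt was lower at -1.99 (adjusted p = 5.74e-07), with 5.31 ± 0.42 and 7.19 ± 1.73 CPM (SD, n = 3) in iBAT and scBAT, and 19.6 ± 3.55 and 30.8 ± 0.76 CPM in iWAT and eWAT.

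Glutathione and selenium genes did not move in a single direction. Of 10 genes of glutathione synthesis and recycling, 3 were higher and 5 lower, with a median of -0.32. Gss, the glutathione synthase gene, rose by 1.17, Oplah by 1.59 and Gclm by 0.58, while Ggt5, which breaks glutathione conjugates down, was lower at -2.28. With iWAT 1 and 3 left out, 4 were higher and 4 lower (median -0.38), as Gclc, the catalytic subunit of glutathione synthesis, passed as higher and Ggct lost its call. Of 9 selenoprotein supply genes 3 were higher and 4 lower, with a median of -0.02. The higher ones act in making selenocysteine: Sephs2 (1.90), Pstk (1.59) and Sepsecs (0.51). The lower ones were Eefsec (-1.16), Lrp8 (-3.30), Lrp2 (-7.56) and Scly (-0.32). Without iWAT 1 and 3 these values were -0.79, -1.37, -6.57 and -0.17, in the same order. The counts without iWAT 1 and 3 were 4 higher and 3 lower (median -0.15), Secisbp2 passing as higher and Scly losing its call. Lrp2, a receptor for selenoprotein P, had 2 counts in iBAT and 0 in scBAT, and 54 and 1279 counts in iWAT and eWAT.

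Of 12 regulators and targets of NRF2, the stress factor that binds antioxidant response elements, 5 were higher and 4 lower, with a median of 0.06. The higher ones were Gsta4 (1.74), Srxn1 (1.35), Txnrd1 (0.73), Gclm (0.58) and Keap1 (0.36). The lower ones were Nqo1 (-1.14), Hmox1 (-1.54), Slc7a11 (-3.97) and Gsta3 (-3.24). Slc7a11, the cystine importer, was at 15.1, 1.41 and 31.4 CPM in iWAT 1, 2 and 3, at 0.28 to 0.40 CPM in eWAT and at most 0.24 CPM in brown libraries. Its high values lay in the libraries high in lymphocyte markers, and without them its brown minus white value was -2.21 (adjusted p = 0.00102). The macrophage marker sum was also higher in the white depots, and the part of either cell type in the 4 lower genes was not tested. In the fit without iWAT 1 and 3, 6 genes of the list were higher and 5 lower (median 0.09), Gclc passing as higher and Gstm1 as lower. Of the 9 metal handling genes tested, 2 were higher and 3 lower, with a median of -0.08. Mtf1, the metal sensor, gave 0.11 (adjusted p = 0.452) and Slc30a1, a zinc exporter, -0.08 (adjusted p = 0.442). The zinc importer Slc39a14 rose by 1.05 and the copper importer Slc31a1 by 0.51, while Slc39a8 (-1.32) and the copper pump gene Atp7a (-0.70) were lower. Leaving out iWAT 1 and 3 gave 2 higher and 4 lower (median -0.13), Slc39a1 passing as lower. Mt3 had 19, 13 and 9 counts in iWAT and 0 to 2 in every other library, and Mt4 had 0 counts in all 12.

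Signals that are known to induce metallothioneins were counted too. Of 11 glucocorticoid response genes 2 were higher and 3 lower, with a median of 0.04. The glucocorticoid receptor gene Nr3c1 (-0.47) and Tsc22d3 (-0.57) were lower, and Hsd11b1 (0.56) and Klf9 (0.61) higher. Hsd11b1 and Tsc22d3 lost their calls without iWAT 1 and 3 (0.25 and -0.62, adjusted p = 0.0815 and 0.0631) and Zbtb16 passed as lower, which left 1 higher and 3 lower (median -0.23). Of 9 acute phase and interleukin 6 genes 0 were higher and 7 lower, with a median of -1.02. Stat3 was at -0.72 (adjusted p = 4.22e-06) and Il6st at -0.67, and Saa3 had 2 counts in each brown depot against 91 in iWAT and 482 in eWAT. All 9 were lower without iWAT 1 and 3 (median -0.89), Hp and Orm1 passing as well. All 7 macrophage markers tested were lower in brown fat too, with a median of -2.29, and their part in the acute phase counts was not tested. The list counts with all libraries read against 31.3% of tested genes higher and 38.1% lower. Those without iWAT 1 and 3 read against the shares given above for that fit.

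**Figure D5:**
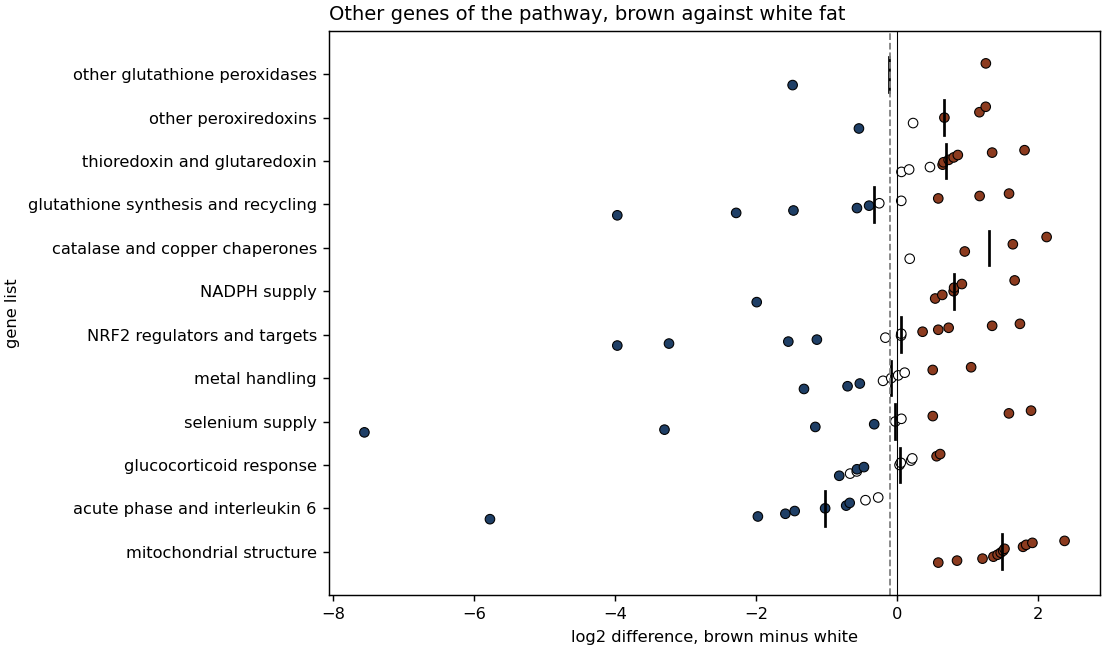
Log2 difference between brown and white fat (x axis) of the genes of 12 lists (y axis); filled points passed an adjusted p of 0.05, open points did not, black ticks are list medians and the dashed line is the median of all tested genes. All 12 mitochondrial structure genes lie to the right, and the points farthest to the left, Lrp2 and Saa3, rest on few counts in brown fat.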

How the data were processed

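Per the labels' protocols, total RNA (250 ng) from each depot, extracted with a kit for fatty tissue, was made into TruSeq RNA libraries. The authors' deposited table gives whole-number read counts per gene symbol, not normalized. Per the submitters' processing notes, the tools were edgeR, HTSeq 0.6.1p1, Picard 1.119, STAR 2.4.2a and bcl2fastq 1.8.3, and the build was mm10; annotation and strand setting are not given in the sources used here.

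Genes were filtered with filterByExpr, leaving 14898 that held at least 99.7% of each library's counts, scaled with TMM factors and tested in edgeR 4.0.16 (quasi-likelihood F test, R 4.3.3, robust), with 1 mean per depot and 8 residual degrees of freedom. Alternatives were other scalings, no filter, DESeq2 1.42.0, limma-voom (limma 3.58.1), a replicate block, depots alone and libraries left out. The test was checked on simulated data.

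Listed genes named are the 3 with the smallest adjusted p per list, those against their list, Mt3, Mt4, Mtf1, Slc30a1 and Gpx5, and the 3 nearest profiles per member. Eefsec, Lrp8, Gsta4, Srxn1, Keap1, Defb42 and Rnase10 were named after their values were seen. Members and lists were chosen with earlier results of these data known. Gene models come from GENCODE (GRCm38) and upstream windows from RefSeq. No libraries were identical, and counts within depots differed by more than sampling noise.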

Additional observations from a re-analysis of the deposited data

Results flagged for a closer look

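Gpx1 in scBAT 3 stood at 457 CPM, apart from the other 5 brown libraries, which lay between 411 and 426 CPM. Its gap to the nearest of them was 0.681 of the whole range, above Dixon's 95% critical value for 6 samples. Of the 10 genes in the 6 brown and the 6 white libraries it was the only value set apart in this way, and chance sets apart about 1 in 20 groups.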

How the results depend on the processing

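Over the 70 values of the 10 genes in 7 comparisons, direction and call held for all 70 with RLE scaling, 64 with upper quartile scaling, 68 with no filter, 67 with DESeq2 and 69 with limma-voom. Without iWAT 1 and 3 they held for 55, and in fits on the contrasted depots alone for 54 of 60. Mt2 in iBAT minus eWAT turned to -0.00235 with upper quartile scaling, where calls were lost for Mt2 and Gpx1 in brown minus white, Mt1 in scBAT minus eWAT and Sod1 in both brown depots minus eWAT. With no filter Mt1 in scBAT minus eWAT and Sod1 in iBAT minus eWAT lost theirs, and with limma-voom Mt1 in scBAT minus eWAT. Without iWAT 1 and 3, values in iWAT minus eWAT reversed for Sod1 (0.339), Sod2 (0.370), Gpx3 (0.0553), Gpx4 (0.128), Prdx3 (0.363) and Txn2 (0.146).

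Genes past the threshold in scBAT minus iBAT numbered 49, and 210 with DESeq2, 29 with limma-voom, 287 without iWAT 1 and 3, 154 with the depots alone and 10 to 145 with 1 library left out. Those in iWAT minus eWAT numbered 4277, and 892 without iWAT 1 and 3, 210 with the depots alone and 1221 to 10323 with 1 library left out (10323 without iWAT 2). Of the 10 genes, 1 was lower in iWAT minus eWAT, and 4 with DESeq2 (Mt1, Mt2, Sod3 and Gpx1), 0 without iWAT 1 and 3, 0 with the depots alone and 0 to 10 with 1 library left out. The lower ones in iBAT minus iWAT and in scBAT minus iWAT went from 0 to 1 without iWAT 1 and 3, and ran from 0 to 1 with 1 library left out. The causes were not tested.

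With 1 library left out, values that reversed ranged, in iBAT minus eWAT and scBAT minus eWAT, from -0.0599 to 0.275 and from -0.285 to 0.0162 for Mt2, and in scBAT minus iBAT from -0.0379 to 0.0400 for Gpx1 (-0.00303 without iWAT 2). For Sod3 they ranged from -0.849 to 0.0455 in iBAT minus iWAT and from -0.775 to 0.104 in scBAT minus iWAT, the highest without iWAT 2. In iWAT minus eWAT they ranged from -0.448 to 0.0352 for Sod1, -0.619 to 0.0079 for Sod2 and -0.512 to 0.00263 for Prdx3, the highest without iWAT 3.

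Same-numbered libraries had correlations of -0.184 to 0.234, 5 of 18 above 0.1, and 5 of 12 libraries correlated best with their own number. Whether same-numbered libraries share an animal cannot be decided from these values, with so few libraries per depot, and the labels do not say. With a replicate block, 18 genes passed in scBAT minus iBAT, and none of the 70 calls changed.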

Other observations

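Gpx2, the glutathione peroxidase known from the gut lining, had 382 counts in eWAT 3 (12.0 CPM) and 0 or 1 count in each of the other 11 libraries. It was not among the tested genes and was picked out after its values were seen. Crisp1, an epididymal secretory gene, reached 451 CPM in scBAT 2 and 177 CPM in scBAT 1, against 43.3 CPM in scBAT 3, at most 11.6 CPM in iBAT and 36.8 CPM in eWAT 2. The epididymal Gpx5 was at 0 counts in the brown depots. Of 8 epididymal markers, Gpx5 and Crisp1 among them, 4 were at 0 counts in scBAT. The number was 4 in iBAT, 3 in iWAT and 2 in eWAT. Of the 3 tested in brown minus white, Crisp1 (4.63) and Defb42 (4.04) were higher and Rnase10 (-1.06) was lower. The tissue source of Crisp1 in scBAT was not tested.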
